A study of Homo sapiens with 4 samples.

Results

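Inflammasomes are protein platforms that innate immune cells assemble when a sensor detects danger in the cytosol, and the 10 genes described here encode the core of that pathway: the sensors NLRP3, NLRC4 and AIM2, the adaptor PYCARD (ASC), the inflammatory caspases CASP1, CASP4 and CASP5, the pore-forming protein GSDMD, and the cytokines IL1B and IL18. They were selected by gene symbol from the 57992 genes of the deposited table, with earlier results of these data known. RNA was sequenced from Molm13, an established human acute myeloid leukaemia cell line, in a subline labelled VEN-R, which the series title links to resistance to venetoclax, an inhibitor of BCL2. Of the 4 libraries, 2 carried a control hairpin (shCtrl, genotype WT in the labels) and 2 a hairpin against PRMT9 (shPRMT9, genotype PRMT9 knockdown), and Dox induction was applied in both groups. PRMT9 is a protein arginine methyltransferase. The series was designed to examine depletion of this enzyme in resistant cells. The labels do not say whether libraries 1 and 2 of a group came from separate cultures, so p-values and SDs here measure only the spread between these libraries, which may be technical.

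In a canonical inflammasome the sensor recruits PYCARD, which gathers pro-caspase-1 so that it cleaves and activates itself. Active caspase-1 matures pro-IL-1β and pro-IL-18 and cuts gasdermin D, whose freed N-terminal part forms pores in the plasma membrane and kills the cell by pyroptosis. Caspase-4 and caspase-5 bind bacterial lipopolysaccharide in the cytosol and cut gasdermin D directly, the non-canonical route. Monocytes and macrophages are the classic setting of this pathway, and acute myeloid leukaemia cells of monocytic type can share its components.

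PRMT9 itself had 398 and 406 counts in the shCtrl libraries and 81 and 78 counts in the shPRMT9 libraries. It fell by 2.48 on the log2 scale (SE 0.12, edgeR adjusted p = 5.24e-13), the direction its label gives. Library totals ranged from 28592902 to 33845172 counts. Changes were widespread: 67.9% of the 15193 genes tested passed an adjusted p below 0.05, with 33.4% of tested genes higher and 34.5% lower after knockdown, and the median log2 fold change over all tested genes was 0.001. Of 13 myeloid and leukaemia line markers, 12 were tested, 10 rose and 2 fell, and their summed level went from 1562 and 1554 CPM (counts scaled to TMM-adjusted library size) in shCtrl to 2367 and 2364 CPM in shPRMT9. LYZ, the lysozyme gene and the most abundant of these markers, rose by 0.63. The 2 falls were FCGR1A (-0.62) and MPO (-0.47). The monocyte marker CD14 had only 2 and 8 counts in the controls and 20 and 21 counts in the shPRMT9 libraries. EPCAM, KRT19 and COL3A1 (epithelial and stromal), CD2 (lymphoid) and HBA1 and HBB (erythroid) were among the listed markers with no count in any library. Other markers of those types were not absent, and the most abundant of each list is given by RPKM in the controls. Of 5 tested epithelial and stromal markers 4 rose (sum 50.6 and 48.3 CPM in shCtrl, 81.1 and 82.5 CPM in shPRMT9, ACTA2 most abundant). KRT18 had 663 and 638 counts in shCtrl and 806 and 824 counts in shPRMT9. Its RPKM in the controls (6.73 and 7.08) overlapped that of ACTA2 (7.5 and 6.84). KRT18 rose by 0.18 and ACTA2 by 1.04. Of 4 tested lymphoid markers 2 rose and 1 fell (66.8 and 65.8 CPM, then 89.4 and 88.2 CPM, NKG7 most abundant). The fall was PAX5, which in CPM stood above NKG7 in every library (38.5 and 38.8, then 35.4 and 34.4). Of 2 tested erythroid and megakaryocyte markers 2 rose (12.4 and 11.8 CPM, then 17.4 and 15.8 CPM, EPOR most abundant). CD14, PDGFRB and ITGA2B, 1 riser each in the myeloid, stromal and megakaryocyte counts, reached the test only through the shPRMT9 libraries. Among genes past the minimum in all 4 libraries 9 of 11 myeloid, 3 of 3 epithelial and stromal and 1 of 1 erythroid and megakaryocyte markers rose. The part of these marker changes in the results below was not tested. In bulk RNA a larger share of cells that express a gene and more RNA per cell cannot be told apart.

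The inflammasome genes were higher in the PRMT9 knockdown libraries throughout the pathway, from sensor to cytokine. Of the 10 genes, 9 had enough reads for the test and all 9 of these rose, in a comparison in which 33.4% of all tested genes rose. In each of the 9 both shPRMT9 libraries lay above both controls in CPM, which was so for 41.7% of all tested genes. The sizes ranged from 1.18-fold for NLRP3 to 3.43-fold for IL1B, with a median log2 fold change of 0.75. AIM2 reached the test only through its counts in the shPRMT9 libraries, so it could hardly have been tested without differing. The 8 genes that passed the minimum in both controls had a median of 0.66. CASP5 was too low to test. When the question was whether a change exceeded 1.5-fold (glmTreat of edgeR), 4 members passed: IL1B, IL18, CASP4 and NLRC4. Of all 15193 tested genes, 1689 were called higher and 1212 lower under that test.

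**Figure D1:**
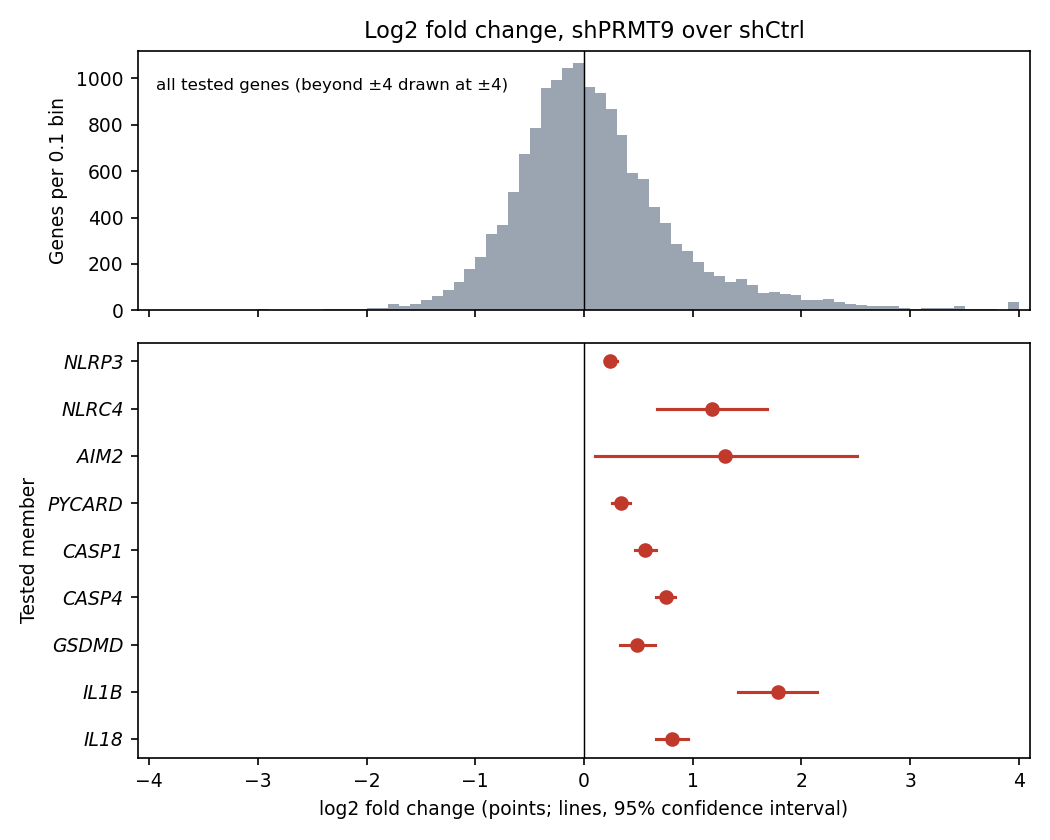
Log2 fold change of shPRMT9 over shCtrl (horizontal axis) for all 15193 tested genes as a histogram (upper panel, genes per bin on the vertical axis) and for the 9 tested inflammasome genes as points with 95% confidence intervals (lower panel). All 9 intervals lie to the right of 0, and the widest belongs to AIM2 (0.10 to 2.51).

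Per length of transcript, the pathway was unevenly expressed. In deposited RPKM (reads per kilobase of exon, scaled to library total), PYCARD and NLRP3 stood highest in the controls, at a mean of 33.3 each, and their libraries overlapped. CASP1 (8.07), CASP4 (7.07), IL18 (4.83) and GSDMD (2.57) followed, each apart from the next in both controls. IL1B (0.616), NLRC4 (0.291) and AIM2 (0.0762) were low, and CASP5 had no reads. The order was the same after knockdown, except that CASP1 and CASP4, at 11.9 and 11.8, no longer stood apart, while PYCARD (42.0) and NLRP3 (39.3) did. The 10 genes together summed to 88.1 and 92.2 RPKM in shCtrl and 120 and 121 RPKM in shPRMT9. NLRP3 made up 37.0% and 36.8% of that sum under shCtrl, and 32.7% of it in both shPRMT9 libraries.

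**Figure D2:**
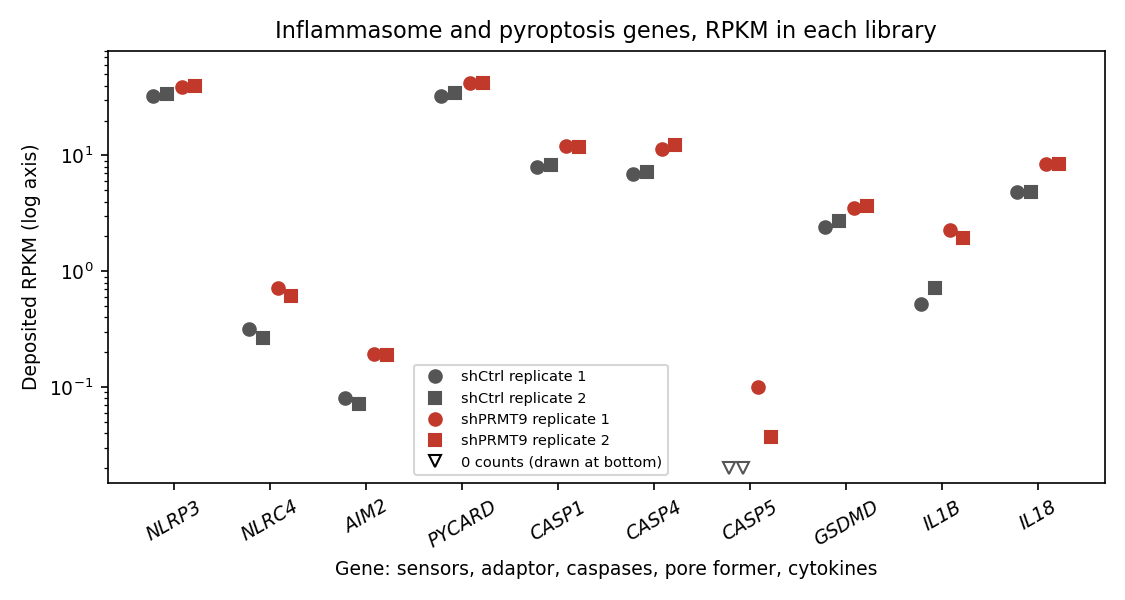
Deposited RPKM (logarithmic vertical axis) of the 10 genes in each of the 4 libraries, grey for shCtrl and red for shPRMT9, circles for replicate 1 and squares for replicate 2. PYCARD and NLRP3 lie between 32.4 and 42.1 RPKM in every library, and open triangles mark the controls of CASP5, which had 0 counts.

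Among the sensors that are members, the most abundant one had the smallest fitted fold. NLRP3, which responds to potassium efflux and membrane damage (chromosome 1, 247416156 to 247449108, plus strand of GRCh38), stood at 157 and 159 CPM in shCtrl and 187 and 188 CPM in shPRMT9. The groups were apart but close, 1.18-fold or 0.24 in log2 units (SE 0.02, edgeR adjusted p = 4.68e-08). NLRC4, which with NAIP proteins detects bacterial flagellin and secretion system parts (chromosome 2, 32224453 to 32265854, minus strand), had 35 and 27 counts in shCtrl and 80 and 75 counts in shPRMT9. It rose by 1.18 (SE 0.24, adjusted p = 2.64e-04), or 2.26-fold with a 95% confidence interval from 1.59 to 3.21.

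AIM2, a sensor of cytosolic double-stranded DNA (chromosome 1, 159062484 to 159147096, minus strand), had 5 and 4 counts in the controls and 12 and 13 counts after knockdown. No library overlapped between groups, yet the counts are so few that the log2 fold change of 1.30 had an SE of 0.58. Its edgeR adjusted p of 0.0488 was at the edge of the threshold, and the call was lost in 12 of 17 alternatives, among them DESeq2 (adjusted p = 0.254), the replicate block (adjusted p = 0.063) and the removal of any single library (adjusted p = 0.152 to 0.201).

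Sequence upstream of the start sites was read from RefSeq (GRCh38.p14) for the 7 members with an entry, namely CASP4, CASP5, PYCARD, NLRP3, NLRC4, AIM2 and IL1B, in windows of 300 bases that end 50 bases after the start. They were searched on both strands for the core of the interferon-stimulated response element (GAAA, any 2 bases, then GAAA), for the motif GAS (TTCNNNGAA) and for the NF-kB motif. Of the 9 windows of these 7 genes (NLRC4 has 3) 3 held a match, 1 in each of 3 genes: AIM2 and CASP5 the first motif, CASP5 and IL1B the second, and none the third. Over all 35116 windows in RefSeq, 3.57% held the first motif, 7.66% the second and 11.3% the third, and 21.1% at least 1 of them. A match is a run of letters and not a shown binding site. The 250 bases before the RefSeq start of AIM2 (chr1:159076767-159077016, minus strand) are given because they hold 1 match. It is in capitals, read on the opposite strand, and starts 190 bases before the start site. That start site lies inside the counted gene, whose span on the minus strand begins upstream at 159147096.
AIM2: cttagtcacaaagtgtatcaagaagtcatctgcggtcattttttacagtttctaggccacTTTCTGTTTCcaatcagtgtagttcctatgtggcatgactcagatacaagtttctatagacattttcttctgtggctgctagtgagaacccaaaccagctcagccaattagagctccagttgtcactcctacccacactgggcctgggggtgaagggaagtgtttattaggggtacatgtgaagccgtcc

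The adaptor PYCARD links sensors of the PYRIN class to caspase-1 (chromosome 16, 31201485 to 31203450, minus strand). It stood at 54.5 and 56.2 CPM in shCtrl and at 69.8 and 69.9 CPM in shPRMT9, a modest rise of 0.34 (SE 0.04, edgeR adjusted p = 2.13e-07) with the groups apart. An antisense gene, PYCARD-AS1, lies across the same locus, and 54.6% of the 50-base windows of PYCARD transcripts also occur in it on the opposite strand. Whether the authors' counting used strand is not given in the sources used here, so reads of this pair may not be separable. PYCARD-AS1 had 81 and 58 counts in shCtrl and 104 and 123 counts in shPRMT9 (log2 fold change 0.56, adjusted p = 0.0111). The CPM of both genes summed to 57.1 and 58.3 in the controls and 73.2 and 73.6 after knockdown, a log2 ratio of 0.35.

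Of the inflammatory caspases, CASP1 and CASP4 rose and CASP5 was barely detected. CASP1, the effector of canonical inflammasomes (chromosome 11, 105025443 to 105035250, minus strand), had 898 and 850 counts in shCtrl and 1373 and 1490 counts in shPRMT9. Its groups were apart by 1.48-fold, 0.56 in log2 units (SE 0.05, edgeR adjusted p = 2.98e-09). CASP4, the lipopolysaccharide-binding caspase (chromosome 11, 104942866 to 104969436, minus strand), went from 51.1 and 51.5 CPM to 82.0 and 90.2 CPM. This was a 1.68-fold rise, 0.75 in log2 units (SE 0.04, adjusted p = 1.13e-11), and the knockdown libraries differed more from each other than the controls did. The 2 genes kept close levels per length: the ratio of CASP4 to CASP1 in RPKM was 0.877 and 0.876 in shCtrl and 0.942 and 1.05 in shPRMT9. With 2 libraries a group an exact two-sided permutation test of such a ratio cannot go below p = 0.333, so ratios are given as values only.

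CASP5, a close relative of CASP4 (chromosome 11, 104994235 to 105023168, minus strand), had 0 counts in both controls and 5 and 2 counts in the shPRMT9 libraries. A count of 0 allows up to 3 counts over the control group, or 0.0512 CPM, against 0.108 CPM over the knockdown group, which is 2.11 times that limit. The 7 counts have an exact 95% Poisson interval from 2.81 to 14.4, which covers counting error only and takes in a level below the limit. Without the filter on low counts the edgeR adjusted p was 0.0776. Of sequence shared with its neighbour, 0.576% of the 50-base windows of CASP5 transcripts also occur in CASP4.

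CASP4 and CASP5 are neighbouring duplicates, and the 250 bases before their start sites are given side by side because only the window of CASP5 holds the searched motifs. They come from chr11:104968575-104968824 for CASP4 and chr11:105023169-105023418 for CASP5, both on the minus strand of GRCh38.p14. In a global alignment 64.7% of columns were identical, against 45.9% for CASP4 with IL1B and 49.1% for CASP5 with AIM2. Capitals mark the overlapping pair of response element cores that starts 250 bases before the start site of CASP5, and the GAS motif that starts 100 bases before it.
CASP4: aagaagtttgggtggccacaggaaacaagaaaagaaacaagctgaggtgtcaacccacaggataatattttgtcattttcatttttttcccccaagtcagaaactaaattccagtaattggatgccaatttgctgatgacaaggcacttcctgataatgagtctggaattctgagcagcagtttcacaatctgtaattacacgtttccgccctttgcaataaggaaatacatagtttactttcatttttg
CASP5: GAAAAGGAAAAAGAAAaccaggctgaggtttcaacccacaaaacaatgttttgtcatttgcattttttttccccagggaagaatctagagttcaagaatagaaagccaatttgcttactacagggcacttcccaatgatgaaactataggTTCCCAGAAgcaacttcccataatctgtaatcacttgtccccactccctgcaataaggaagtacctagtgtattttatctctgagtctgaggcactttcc

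The caspase genes lie in a cluster of 7 genes on the minus strand of chromosome 11, in the order CASP12, CASP4, CASP5, CASP1, CARD16, CARD17 and CARD18. CASP5 ends 2274 bases from CASP1, and CASP1 6075 bases from CARD16. CARD16 encodes a decoy made of a caspase-1-like CARD domain that binds caspase-1. It had 125 and 91 counts in shCtrl and 196 and 187 counts in shPRMT9, and rose by 0.68 (SE 0.15, edgeR adjusted p = 4.44e-04). All 3 tested genes of the cluster rose, where 33.4% of all tested genes rose. CASP1 and CASP4 among them are members already counted above. CASP12, CARD17 and CARD18 had no count in any library, and CASP5 was below the filter. CASP1 and CARD16 share sequence: 4.37% of the windows of CASP1 and 10.6% of those of CARD16 occur in the other gene. Their summed CPM was 33.8 and 33.2 in the controls and 50.7 and 49.4 after knockdown, a log2 ratio of 0.58. The ratio of CARD16 to CASP1 in RPKM was 0.305 and 0.235 in shCtrl and 0.313 and 0.275 in shPRMT9, values that overlapped.

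**Figure D3:**
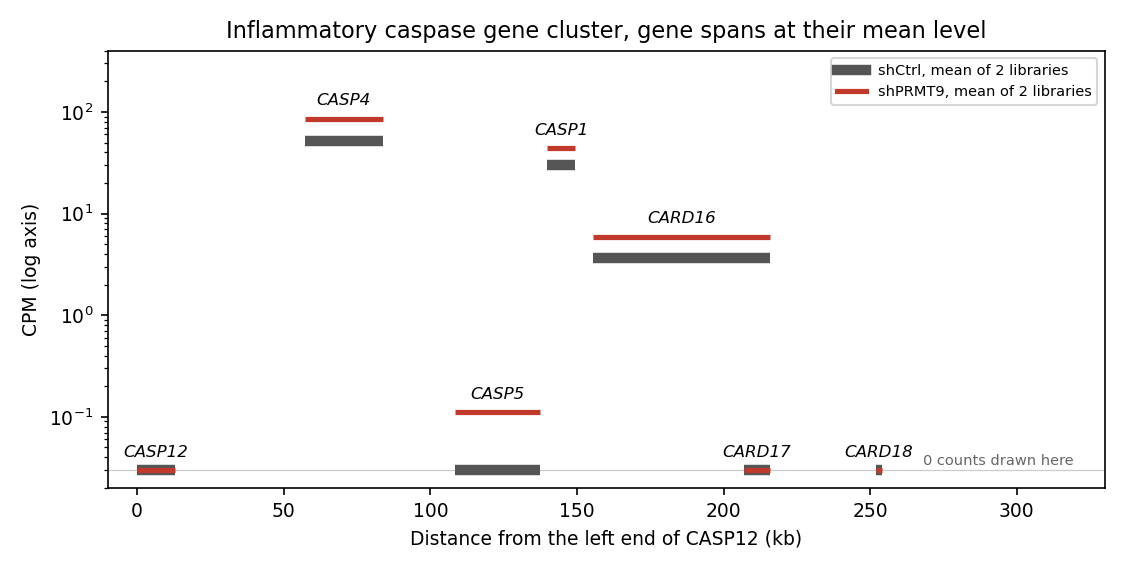
Genes of the inflammatory caspase cluster drawn as horizontal bars at their span (distance from the left end of CASP12 in kb, horizontal axis) and at their mean CPM over 2 libraries (logarithmic vertical axis), thick grey for shCtrl and thin red for shPRMT9. CASP4, CASP1 and CARD16 are higher in red, and CASP12, CARD17 and CARD18 had no counts in either group and are drawn on the line for 0 counts, as is the shCtrl bar of CASP5.

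GSDMD, the pore former that carries out pyroptosis (chromosome 8, 143553207 to 143563062, plus strand), stood at 12.5 and 13.8 CPM in shCtrl and 18.2 and 18.8 CPM in shPRMT9. The groups did not overlap, and the rise was 0.49 (SE 0.08, edgeR adjusted p = 1.44e-05), or 1.41-fold. The other gasdermins were low: GSDMB was the only further one that was called, with 111 and 102 counts in shCtrl and 218 in each shPRMT9 library (0.89, adjusted p = 5.48e-06), while GSDMA, GSDMC and GSDME had at most 4 counts in any library.

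Transcripts of other gasdermins and of proteins that act beside or after them went in both directions. Of 12 listed genes of gasdermins, executioners and membrane rupture 7 were tested, 2 rose and 4 fell (median -0.11), where 33.4% of all tested genes rose and 34.5% fell. Among the falls, ELANE, a granule protease gene chosen after its values were seen, had a log2 change of -0.11. CTSG, another granule protease gene, went from 19324 and 18322 counts to 14718 and 15762 (-0.45, edgeR adjusted p = 3.18e-13). CASP8, the initiator caspase of death receptors, rose by 0.46 (adjusted p = 7.95e-08).

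Both cytokines rose, from different levels, and IL1B had the largest fitted fold of the 9 tested members. Differences between the members' folds were not tested. IL1B, a precursor that caspase-1 cleaves into the fever-inducing cytokine (chromosome 2, 112829751 to 112836903, minus strand), had 49 and 62 counts in shCtrl and 220 and 202 counts in shPRMT9. In CPM this was 1.90 ± 0.401 (SD, n = 2 libraries) against 6.53 ± 0.823 (SD, n = 2 libraries). The rise came to 1.78 in log2 units (SE 0.17, edgeR adjusted p = 2.05e-08), or 3.43-fold with a 95% confidence interval from 2.68 to 4.40. IL18, which drives interferon gamma production by lymphocytes and is stored as a precursor too (chromosome 11, 112143251 to 112164117, minus strand), had 390 and 354 counts in shCtrl and 692 and 749 counts in shPRMT9. It rose by 0.81 (SE 0.07, adjusted p = 6.08e-09), or 1.75-fold. IL18 remained the more abundant transcript per length, with an RPKM ratio to IL1B of 9.38 and 6.73 in the controls and 3.71 and 4.37 after knockdown.

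The sequence before the start of IL1B (chr2:112836780-112837029, minus strand of GRCh38.p14) is given because IL1B had the largest fold among the members. Capitals mark the single GAS match, which starts 180 bases before the start site.
IL1B: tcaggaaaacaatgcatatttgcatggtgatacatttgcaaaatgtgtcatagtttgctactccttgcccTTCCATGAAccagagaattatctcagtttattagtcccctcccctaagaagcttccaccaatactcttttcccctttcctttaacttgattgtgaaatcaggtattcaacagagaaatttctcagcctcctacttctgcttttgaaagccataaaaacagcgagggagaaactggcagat

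Of the called antagonists and receptors of the IL-1 family, all rose except 1 receptor chain. Of 18 listed ligands, receptors and antagonists 6 were tested, 4 rose and 1 fell (median 0.28). IL18RAP, which was not called, reached the test only through the shCtrl libraries. The 5 genes past the minimum in all libraries had a median of 0.30. Over all tested genes 33.4% rose and 34.5% fell. IL1RN, the secreted receptor antagonist that blocks IL-1, went from 431 and 352 counts to 935 and 1049 (1.19, edgeR adjusted p = 1.09e-11). Its RPKM ratio to IL1B was 8.36 and 5.40 in shCtrl and 4.04 and 4.94 in shPRMT9. SIGIRR, an inhibitory receptor of the family, rose by 1.47 (adjusted p = 4.79e-12), and IL1RAP, the shared accessory chain of IL-1 receptors, by 0.30 (adjusted p = 2.33e-06). IL18R1, the ligand-binding chain of the IL-18 receptor, went from 58 and 77 counts to 35 and 36 (-1.07, adjusted p = 9.06e-04). IL18BP, a soluble trap for IL-18 chosen after its values were seen, rose by 0.25 (edgeR adjusted p = 0.0437). That call was lost in 13 of 18 alternatives, among them DESeq2 (adjusted p = 0.251) and the replicate block (adjusted p = 0.0548). Its RPKM ratio to IL18 was 0.313 and 0.302 in shCtrl and 0.210 and 0.209 in shPRMT9. The signalling chain IL1R1 had at most 2 counts in any library. The other ligands, IL1A, IL33, IL36A, IL36B, IL36G, IL37 and IL1F10, had at most 3.

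Several sensors beyond the members were called higher, in a comparison in which 33.4% of all tested genes were. Of 8 listed sensors 6 entered the test, of which 5 rose, 0 fell and NLRP12 was not called (0.20, edgeR adjusted p = 0.219). The median was 1.20. IFI16, a PYHIN family DNA sensor related to AIM2, went from 1189 and 1155 counts to 3340 and 3791 (1.46, edgeR adjusted p = 6.40e-17). CARD8, a sensor that activates caspase-1 through its CARD, went from 3783 and 3475 counts to 7332 and 8151 (0.95, adjusted p = 1.19e-16). NLRP1, a sensor built with the same kind of self-cleaving domain, rose by 1.80 (adjusted p = 2.17e-11). DPP8 and DPP9, peptidases that hold NLRP1 and CARD8 in check, fell by 0.43 and 0.45 (adjusted p = 5.79e-10 and 6.34e-10). They were the falls among the 5 tested decoys and inhibitors, of which 3 rose (12 listed, median 0.41), among them SERPINB1, an inhibitor of granule proteases and inflammatory caspases, by 1.01 (adjusted p = 3.66e-16).

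Factors that license NLRP3 were divided. Of 13 listed genes 12 were tested, 7 rose and 3 fell (median 0.48), where 33.4% of all tested genes rose and 34.5% fell. TXNIP, a thioredoxin-binding protein reported to engage NLRP3, went from 7360 and 7011 counts to 21429 and 23759 (1.51, edgeR adjusted p = 2.06e-20). GBP2, an interferon-induced GTPase, rose by 1.78 (adjusted p = 7.54e-16) and the kinase gene BTK by 0.59 (adjusted p = 5.39e-14). NEK7, the kinase that NLRP3 requires for assembly, fell by 0.21 (adjusted p = 2.18e-05), and the deubiquitinase gene BRCC3 by 0.24 (adjusted p = 7.55e-05). The kinase gene SYK passed in the same direction (-0.07, adjusted p = 0.0335), a call that ended under most other settings and turned to 0.02 with upper-quartile scaling.

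**Figure D4:**
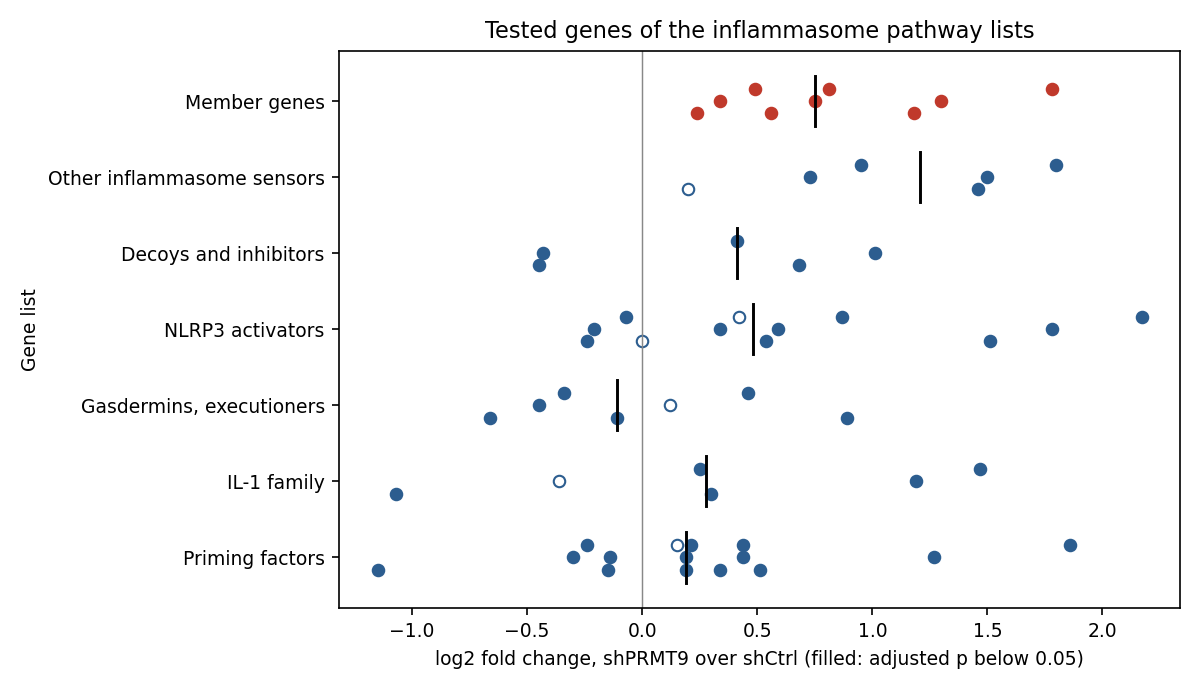
Log2 fold change of shPRMT9 over shCtrl (horizontal axis) for each tested gene of the member list (red) and of 6 other lists of the pathway (blue), 1 row per list. Filled points passed an adjusted p below 0.05, and black lines mark medians, 0.75 for the members and -0.11 for gasdermins and executioners.

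Priming, the transcriptional step that loads a cell with NLRP3 and pro-IL-1β, involves Toll-like receptors and NF-kB. All 15 listed receptors, adaptors and transcription factors were tested. Of these 9 rose and 5 fell (median 0.19), where 33.4% of all tested genes rose and 34.5% fell. CD14, among the rises, was tested only through the shPRMT9 libraries. IRAK1, a kinase that relays signals from Toll-like and IL-1 receptors, showed the largest fall of this list, from 5167 and 4840 counts to 2359 and 2645 (-1.15, edgeR adjusted p = 3.97e-17). NFKB1 fell by 0.30 (adjusted p = 3.58e-06), IRF2, a factor known to drive GSDMD transcription, by 0.24 (adjusted p = 0.00248), and IRAK4 by 0.15 (adjusted p = 0.00360). SPI1, the myeloid factor PU.1, rose by 0.34 (adjusted p = 1.73e-09). SPI1 and CD14 also stand in the myeloid marker list, whose summed level rose as given above.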

How the data were processed

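RNA was profiled by poly(A) sequencing in 4 libraries. The deposited table holds, for each Ensembl gene, unnormalized counts and the authors' RPKM. Trimmomatic 0.39, STAR 2.7.2a, SAMtools 1.10 and GRCh38 appear, without their roles, in the submitters' processing notes. The counting program and how it treated strand and multiply mapped reads were not given in the sources used here. No other per-sample columns were present.

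Counts were tested with edgeR 4.0.16 in R 4.3.3 (filterByExpr with a minimum count of 10, TMM scaling, robust quasi-likelihood fit, group term), with Benjamini-Hochberg adjustment over all 15193 tested genes and calls at an adjusted p below 0.05. The fit was also run on simulated counts with a common dispersion and few changed genes. In these data most genes were called, so that run cannot check the calls given here. CPM uses TMM-scaled library sizes, and log2 fold changes are shPRMT9 over shCtrl. Alternatives used DESeq2 1.42.0, limma 3.58.1 on voom values and on log2(RPKM + 1) or log2(RPKM + 0.1) above 0.1 RPKM, other scalings and filters, a replicate block, and each library left out. Same-numbered libraries did not deviate together (correlation -0.0307 over 15193 genes). Shared 50-base windows were counted in GENCODE 29 transcripts on either strand. The members and lists were chosen with earlier results of these data known, and lists are described by counts and medians without a set test. Named were all members, PRMT9, CARD16 and CARD17, up to 3 tested genes with the lowest adjusted p of each pathway list, up to 3 called genes against its majority, and the most abundant gene of each marker list. Some genes that this rule names are not reported here. Other names were chosen after their values were seen. Intervals and limits on counts cover counting error only.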

Additional observations from a re-analysis of the deposited data

How the results depend on the processing

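Among the members, CASP1, CASP4, PYCARD, NLRP3, NLRC4, GSDMD, IL1B and IL18 kept their direction and their call in every alternative run except the test against a fold of 1.5, where the member count fell from 9 to 4 and CASP1 (0.56), PYCARD (0.34), NLRP3 (0.24) and GSDMD (0.49) did not pass. The count of all genes called, of 15193 tested, then went from 10313 to 2901, with 1689 higher and 1212 lower. AIM2 lost its call at an adjusted p below 0.01 (1.30), without a filter on low counts (1.30), with DESeq2 (1.33), without robust estimation (1.30), in filtered log2(RPKM + 1) (0.15) and log2(RPKM + 0.1) (0.73), with the replicate block (1.31), against a fold of 1.5 (1.30), and without any 1 library (1.22 to 1.42). The filter at 1 CPM left AIM2 untested. The replicate number was also used as a block although the labels do not say that it pairs libraries: 10243 genes were called in place of 10313, and of the member calls AIM2 alone was lost. In log2(RPKM + 1) low genes shrink by construction, and NLRC4 gave 0.36 and IL1B 0.94, against 1.18 and 1.78.

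The number of called list genes moved by more than 1.5 times as follows. Against a fold of 1.5 it was 1 of the 5 tested decoys and inhibitors, 4 NLRP3 activators, 1 of the gasdermin and executioner list, 3 of the IL-1 family, 3 priming factors, 7 myeloid markers and 0 erythroid markers. In the 3 fits of log2 RPKM it was 3 for the IL-1 family, 2 for epithelial and stromal markers and 1 for erythroid markers, and in log2(RPKM + 1) without a filter 9 for the priming list. DESeq2 called 9 priming factors and 1 erythroid marker. Erythroid markers were also 1 at an adjusted p below 0.01, with the filter at 1 CPM, and without any 1 library (1 to 1). SYK turned to 0.02 with upper-quartile scaling, which moved the median of all genes to 0.089. Few reads limit AIM2, NLRC4 and CASP5. Leaving out a library leaves 1 in its group, assumed to vary like the other group.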

Other observations

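Further genes of the pathway were chosen after their values were seen. MEFV, which encodes the sensor pyrin, stood at 12.4 and 8.79 CPM in shCtrl and 31.2 and 28.8 CPM in shPRMT9, a 2.83-fold rise (edgeR adjusted p = 2.95e-04), and its controls differed more from each other than its knockdown libraries did. NAIP, the partner that passes bacterial ligands to NLRC4, rose by 0.73 (adjusted p = 5.70e-04), although it has near-identical copies and its reads are uncertain. The guanylate-binding protein gene GBP5 went from 52 and 44 counts to 228 and 250 (2.17, adjusted p = 1.79e-10). P2RX7, the ATP-gated channel through which potassium leaves the cell, rose by 0.87 (adjusted p = 6.68e-12). NINJ1, which ruptures the membrane after gasdermin pores have formed, fell by 0.34 (adjusted p = 0.00758).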
